A study of Mus musculus with 6 samples.

Results

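The genes described here build ribosomes. They are 33 mouse genes of ribosome biogenesis and of RNA polymerase I, taken by symbol from a count table of 55416 Ensembl genes, and all 33 were found and passed the filter on low counts that left 17679 genes for testing. RNA was sequenced from MB21, a mouse medulloblastoma line labelled as a ptch mutant and grown unattached in DMEM/F12 medium with B27 supplement. Of 6 libraries, 3 came from cells given the vehicle DMSO and 3 from cells given DS38 (DS-1-38), a derivative of benzarone, at 10 uM for 1 day. All 6 libraries share the line and its mutation, and the line is the only one studied. The sample labels give 1 day throughout, while the series' design text gives 5 days. Whether replicates came from separate cultures is not labelled, and every p-value therefore reflects only how far these libraries vary, possibly for technical reasons. The question was which genes differ between cells given the benzarone derivative and cells given vehicle.

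Ribosome synthesis begins in the nucleolus, where RNA polymerase I transcribes ribosomal DNA into a long precursor RNA. Small nucleolar ribonucleoproteins (snoRNPs) modify that precursor, box C/D particles by methylating riboses and H/ACA particles by converting uridines to pseudouridine, and large assemblies then cut it and fold it with ribosomal proteins into a small and a large subunit. Genes of this pathway are known targets of MYC-family transcription factors, and growth of hedgehog-driven granule cell progenitors, the cells from which this tumour type arises, is known to involve MYCN.

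Each DS38 library (60434089 to 84044428 counts) was deeper than any DMSO library (38840296 to 50014681). DMSO replicate 3 stood apart from the others on the second principal component, which held 22.2% of the variance. Markers of granule progenitors were present, and their summed level was 3120 to 3200 CPM (counts scaled to the library total) in DMSO and 3090 to 3100 in DS38. That sum joins changes in both directions, with 3 of 11 higher and 6 lower in DS38, against 12.9% and 11.7% of all genes tested. Atoh1 rose by 25.8%, Barhl1 by 20.9% and Meis1 by 8.15% of their mean in DMSO. Ptch1 fell by 12.5%, Gli2 by 10.5%, Gli1 by 9.7%, Zic2 by 9.54%, Ccnd1 by 8.51% and Zic1 by 6.46%, and Pax6 and Mycn did not pass. Microglial markers summed to at most 0.336 CPM, with C1qa and Tyrobp at 0 counts, and endothelial markers to at most 1.27 CPM, with Kdr and Cldn5 at 0. Summed astrocyte markers were at 144 to 152 CPM in DMSO and 143 to 149 in DS38, nearly all of it Slc1a3, which did not pass, while Gfap was called higher at 4.094 to 4.576 CPM in DMSO and 5.128 to 5.773 in DS38 (edgeR adjusted p = 0.0179). Oligodendrocyte-lineage markers summed to 74.1 to 75.1 and 70.6 to 74.8 CPM, nearly all of it Pdgfra, with Mag at 0 and none called. Fibroblast markers summed to 1.15 to 1.34 CPM in DMSO and 1.84 to 2.17 in DS38, with Col1a1 called higher (0.208 to 0.5429 CPM in DMSO and 0.5518 to 1.066 in DS38, edgeR adjusted p = 0.0122). The part of these markers in the results below was not tested.

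After 1 day of DS38, 13 of the 33 genes had fallen and 0 had risen. The genes that fell were Ncl, Npm1, Fbl, Dkc1, Gar1, Utp20, Wdr43, Nop14, Wdr12, Nop2, Polr1a, Tcof1 and Ddx21, by 5.93% (Tcof1) to 25.7% (Utp20) of their mean in DMSO. The other 20 genes did not pass, with log2 fold changes of -0.08 to 0.06. Summed over the 33 genes, the level was 8619 ± 99.7 CPM in DMSO and 7933 ± 75.4 CPM in DS38 (SD, n = 3). By library the sum was 8730, 8537 and 8591 CPM in DMSO and 7994, 7955 and 7848 CPM in DS38, so the groups did not overlap. Much of the difference in the sum lay in Ncl (mean 1800 CPM in DMSO and 1568 in DS38) and Npm1 (1419 and 1256). The sum therefore does not describe the typical gene of the list. In bulk RNA, fewer cells of a type and less RNA per cell cannot be told apart.

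The test was edgeR's two-sided quasi-likelihood test on counts, with Benjamini-Hochberg adjustment over all 17679 genes and a threshold of 0.05. Among all genes tested, 24.5% passed by this rule, 11.7% lower and 12.9% higher, against 39.4% lower and 0% higher of the 33. Small changes pass more readily in abundant genes: among the 6667 genes at least as abundant as the least abundant of the 33, 20.4% were lower and 15.3% higher. Of the 33, 17 were lower and 0 higher at an unadjusted edgeR p under 0.05. The share of all genes past that looser rule was not computed, so this count cannot be weighed against a background. Every DS38 library lay below every DMSO library for 20 of the 33 genes, against 17.9% of all genes tested, and above for Ubtf alone, against 20.7%; in either direction 38.6% of all genes did not overlap. The median log2 fold change was -0.07 over the 33 genes and 0.00 over all genes. Since the genes were chosen with earlier results of these data known, these shares are a description of the list. The number that fell was 9 to 18 over 16 alternative settings, and 9 of the 13 genes passed in every one: Ncl, Npm1, Fbl, Dkc1, Gar1, Utp20, Wdr43, Nop2 and Polr1a. The share of all genes called lower moved with the setting too. It was 12.2% with DESeq2 (11.7% higher), 11.9% with limma-voom (12.6% higher), 12.6% with RLE scaling (11.9% higher), 8.73% with library size alone (18.6% higher), 6.27% without a filter on low counts (7.45% higher) and 18.1% with a stricter filter (18.2% higher). It was 10.8% with the replicate block (11.9% higher), 11.7% with robust dispersion (13.1% higher), 10.6% after thinning (11.0% higher) and 14.2% with a gene length correction (12.2% higher). Leaving out DMSO replicate 1, 2 or 3 gave 9.30%, 8.81% and 13.5% lower and 9.93%, 9.32% and 13.3% higher. Leaving out DS38 replicate 1, 2 or 3 gave 8.78%, 8.65% and 9.44% lower and 9.16%, 9.41% and 10.2% higher. The plot of values by library and the plot of fold changes by role show all 33 genes.

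**Figure D1:**
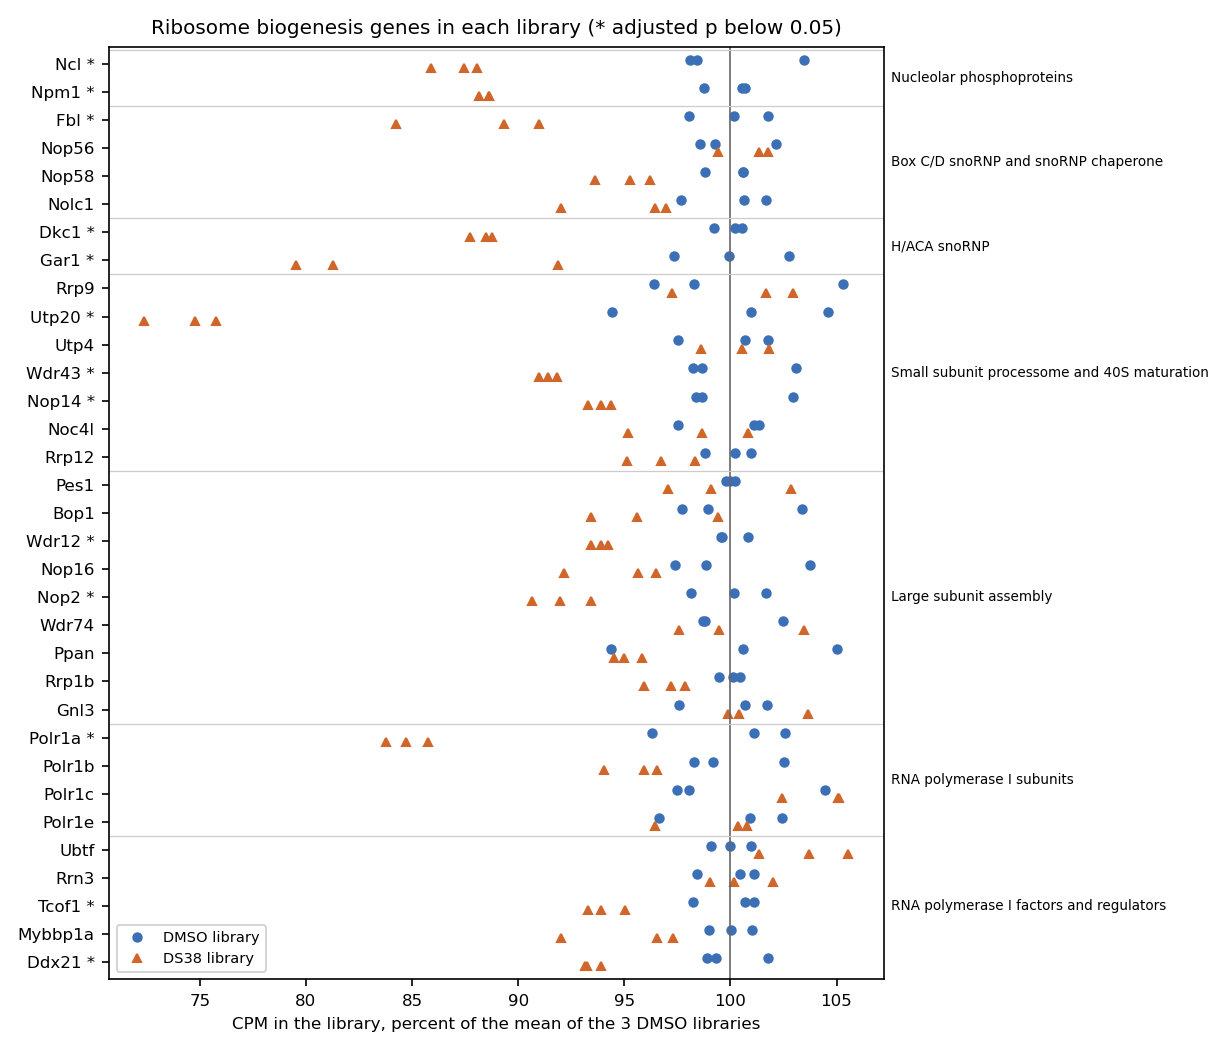
CPM of each gene in each library (x axis, percent of the mean of the 3 DMSO libraries), with genes in rows grouped by role. Circles are DMSO libraries and triangles DS38 libraries, and an asterisk marks the 13 genes past the threshold. Utp20 lies farthest to the left in DS38, and the triangles of Ubtf alone lie wholly to the right of its circles.

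**Figure D2:**
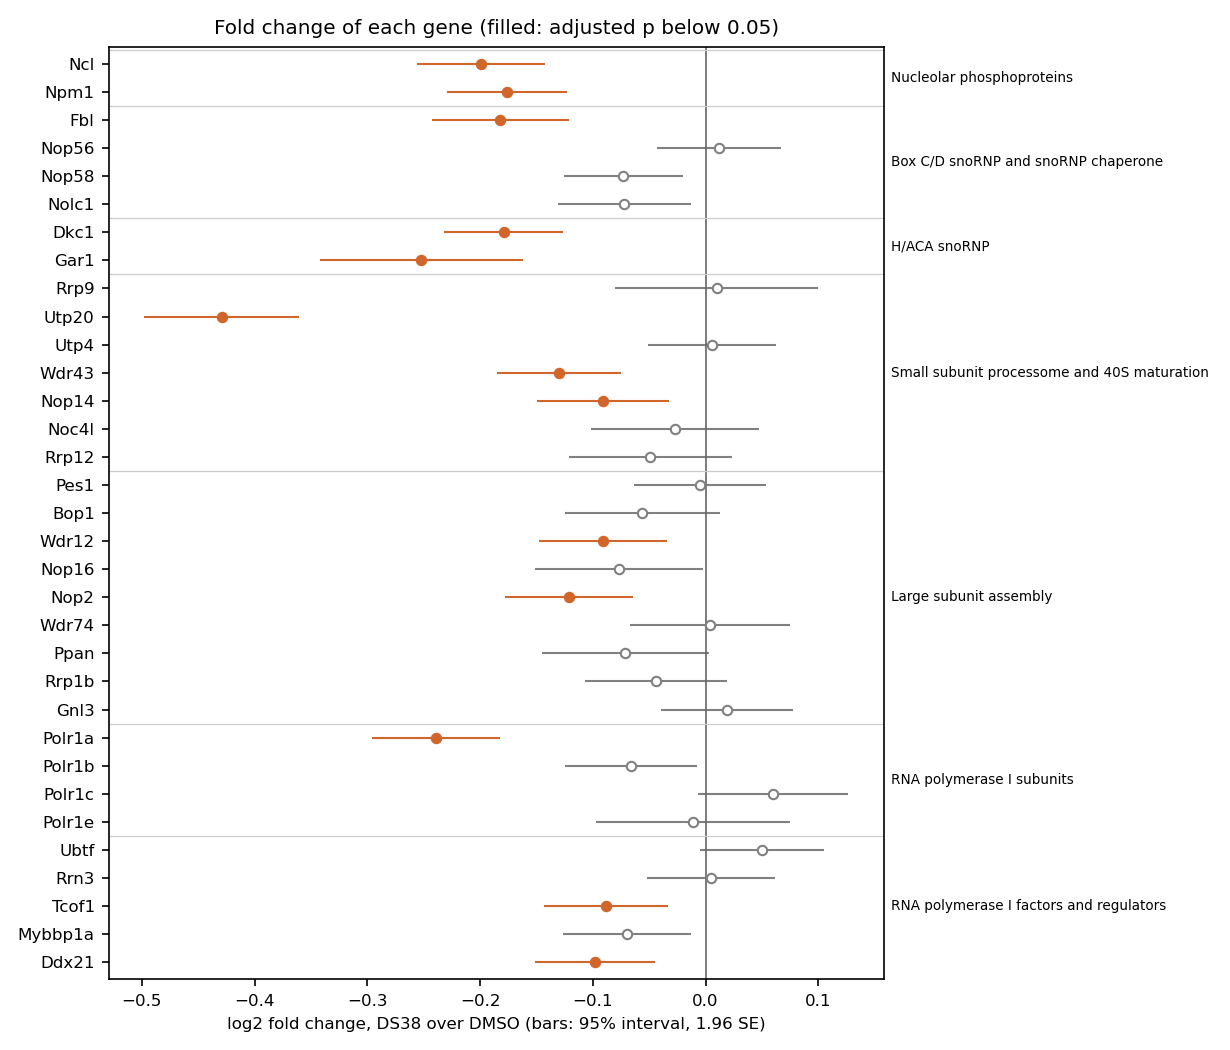
Log2 fold change of DS38 over DMSO (x axis) for each gene, in rows grouped by role. Bars are approximate 95% intervals, taken from the SE by the normal distribution. Filled points are the 13 genes past the threshold, all of them negative, and open points are the other 20.

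The RNA polymerase I subunits did not all pass. Polr1a, the largest subunit, which holds the catalytic site, was at 320.4, 315.7 and 300.8 CPM in DMSO and 267.8, 264.6 and 261.6 CPM in DS38. The groups did not overlap, and the log2 fold change of Polr1a was -0.24 with an SE of 0.029 (edgeR adjusted p = 3.655e-06). Polr1b, the second-largest subunit, was at 117.8 to 122.9 CPM in DMSO and 112.7 to 115.7 in DS38, below every control library. Its log2 fold change of -0.07 ± 0.030 missed the threshold (edgeR adjusted p = 0.109). It passed without DMSO replicate 3 (edgeR adjusted p = 0.0427) and with a correction for gene length (edgeR adjusted p = 0.0158). Polr1c, which RNA polymerases I and III share, was at 67.57, 67.18 and 71.98 CPM in DMSO and 72.39, 72.43 and 70.59 in DS38, with overlapping groups and a log2 fold change of 0.06 ± 0.034 (95% interval -0.01 to 0.13). Polr1e, a subunit specific to polymerase I, was at 27.52 to 29.16 CPM in DMSO and 27.46 to 28.70 in DS38 (log2 fold change -0.01 ± 0.044). Of the 4 subunits, Polr1a alone passed.

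Among the factors of the 33 that work with the polymerase, Ubtf, Rrn3 and Mybbp1a did not pass, and Ddx21 and Tcof1 fell. Taf1a, an initiation factor outside the 33, rose and is described further below. Ubtf, which binds ribosomal DNA and keeps it open for transcription, was at 435.9, 432.1 and 440.2 CPM in DMSO and 460.3, 452.2 and 441.9 CPM in DS38. All DS38 libraries were above the controls, by little in replicate 3, and the log2 fold change of 0.05 ± 0.028 did not pass (edgeR adjusted p = 0.198). With library size alone as scaling it did (0.08 ± 0.026; edgeR adjusted p = 0.0191), and it was then the single gene of the 33 called higher. Rrn3, which makes the polymerase competent to initiate, had groups that overlapped, at 144.5 to 148.5 CPM in DMSO and 145.4 to 149.8 in DS38 (log2 fold change 0.01 ± 0.029, 95% interval -0.05 to 0.06). Ddx21, a nucleolar RNA helicase, averaged 592.9 ± 9.15 CPM in DMSO and fell to 554.0 ± 2.45 in DS38 (SD, n = 3), a log2 fold change of -0.10 ± 0.027 (edgeR adjusted p = 0.00990). The call on Ddx21 was lost without DS38 replicate 1 (edgeR adjusted p = 0.0574) or DS38 replicate 2 (0.0557) and with library size alone (0.0645). Tcof1, the treacle protein that links transcription of ribosomal DNA to processing, fell from 162.8 ± 2.54 to 153.1 ± 1.40 CPM (edgeR adjusted p = 0.0255). The Tcof1 call was lost without DMSO replicate 1 (edgeR adjusted p = 0.0576), DS38 replicate 1 (0.0659), DS38 replicate 2 (0.114) or DS38 replicate 3 (0.0854), and under 4 other settings. Mybbp1a, a nucleolar MYB-binding protein, was at 410.9 to 419.4 CPM in DMSO and 382.0 to 403.9 in DS38, below the controls, and did not pass (edgeR adjusted p = 0.0813). It passed without DMSO replicate 3 (edgeR adjusted p = 0.0487) and in 3 other alternatives.

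Both abundant nucleolar phosphoproteins fell. Ncl, nucleolin, which binds the precursor RNA, was at 1863, 1772 and 1766 CPM in DMSO and 1574, 1585 and 1546 CPM in DS38 (log2 fold change -0.20 ± 0.029; edgeR adjusted p = 2.697e-05). Npm1, nucleophosmin, a chaperone that gives the nucleolus its outer layer, was at 1429, 1402 and 1427 CPM in DMSO and 1258, 1258 and 1251 CPM in DS38 (log2 fold change -0.18 ± 0.027; edgeR adjusted p = 4.570e-05). For both genes every DS38 library lay below every control, and the falls were 12.9% and 11.5%. These 2 genes together made up 37.4% of the summed CPM of the 33 in DMSO and 35.6% in DS38. Npm1 has processed copies in the mouse genome, and how reads that match several copies were counted is not given, so its level is uncertain.

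The core proteins of box C/D snoRNPs did not all pass. Fbl, fibrillarin, the methyltransferase of these particles, was at 250.7, 241.6 and 246.8 CPM in DMSO and 220.1, 224.2 and 207.6 CPM in DS38, without overlap, for a log2 fold change of -0.18 ± 0.031 (edgeR adjusted p = 1.786e-04). Nop56, a scaffold protein of the same particle, was at 295.8, 297.8 and 306.5 CPM in DMSO and 305.4, 304.1 and 298.3 CPM in DS38. Its groups overlapped (log2 fold change 0.01 ± 0.028, 95% interval -0.04 to 0.07). Nop58, the other scaffold protein, was at 418.9 to 426.6 CPM in DMSO and 396.9 to 407.9 in DS38, and its log2 fold change of -0.07 ± 0.027 missed the threshold (edgeR adjusted p = 0.0521). Nop58 passed in 7 of 16 alternatives, among them without DMSO replicate 3 (edgeR adjusted p = 0.0141) and with DESeq2 (adjusted p = 0.0139). Nolc1, a chaperone of snoRNPs, was at 271.5 to 282.6 CPM in DMSO and 255.8 to 269.5 in DS38 (edgeR adjusted p = 0.0801). Annotated exons of Nop56, Nop58, Ncl, Gnl3 and Ppan overlap small nucleolar RNAs on the same strand.

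Both H/ACA genes fell. Dkc1, dyskerin, the pseudouridine synthase of these particles, was at 254.8, 252.3 and 255.6 CPM in DMSO and 224.9, 223.0 and 225.7 CPM in DS38. These libraries varied little within groups, and the log2 fold change was -0.18 ± 0.027 (edgeR adjusted p = 4.418e-05). Gar1, a small core protein of the same particle, was at 53.75, 52.27 and 50.91 CPM in DMSO and 41.61, 48.06 and 42.51 CPM in DS38. DS38 replicate 2 was nearest to the controls, and Gar1 fell by 0.25 ± 0.046 on the log2 scale (edgeR adjusted p = 3.338e-04). Of the remaining core proteins, Nhp2 averaged 99.92 ± 4.03 CPM in DMSO and fell to 89.30 ± 2.43 in DS38 (edgeR adjusted p = 0.00133). Nop10, named after its values were seen because it completes the particle, averaged 57.54 ± 1.78 CPM in DMSO against 60.13 ± 1.53 under DS38 and did not pass (edgeR adjusted p = 0.207).

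Utp20 had the largest fall of the 33. It encodes a very large component of the small subunit processome, the assembly that forms on the precursor RNA as it is made. Its level was 145.2, 140.2 and 131.1 CPM in DMSO and 103.8, 100.5 and 105.2 CPM in DS38, a log2 fold change of -0.43 ± 0.035 (edgeR adjusted p = 1.522e-08). Wdr43, a further processome protein, averaged 248.0 ± 6.66 CPM in DMSO and fell to 226.7 ± 1.06 in DS38, a log2 fold change of -0.13 ± 0.028 (edgeR adjusted p = 0.00185). By contrast Utp4, which sits with Wdr43 in the early UTP-A complex, had overlapping groups, at 143.0, 138.5 and 144.5 CPM in DMSO and 144.6, 140.0 and 142.8 CPM in DS38 (log2 fold change 0.01 ± 0.029, 95% interval -0.05 to 0.06). Nop14, a small subunit factor that binds Noc4l, fell from 109.5 ± 2.79 to 102.7 ± 0.581 CPM (edgeR adjusted p = 0.0306). The Nop14 call was lost without DMSO replicate 3 (edgeR adjusted p = 0.0673), DS38 replicate 1 (0.0825), DS38 replicate 2 (0.111) or DS38 replicate 3 (0.0848), and under 4 other settings. Noc4l (45.24 to 47.03 CPM in DMSO and 44.16 to 46.79 in DS38) and Rrp9, a protein specific to the U3 snoRNP (28.35 to 30.97 and 28.60 to 30.27 CPM), did not pass and had overlapping groups. Rrp12, which acts in maturation and export of subunits, was at 43.80 to 44.78 CPM in DMSO and 42.17 to 43.59 in DS38 (log2 fold change -0.05 ± 0.037).

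Of 9 genes of large subunit assembly, 2 fell (22.2%), about the 20.4% of all genes of like abundance. Nop2, a methyltransferase that modifies a cytosine of the large subunit RNA, was at 123.4, 119.1 and 121.6 CPM in DMSO and 113.4, 111.6 and 110.0 CPM in DS38, without overlap (log2 fold change -0.12 ± 0.029; edgeR adjusted p = 0.00424). Pes1, Bop1 and Wdr12 form the PeBoW complex, and Wdr12 was the member that passed. Wdr12 was at 98.52, 98.48 and 99.75 CPM in DMSO and 92.43, 93.19 and 92.89 CPM in DS38 (log2 fold change -0.09 ± 0.029; edgeR adjusted p = 0.0259). That call was lost without DMSO replicate 2 (edgeR adjusted p = 0.0625), DS38 replicate 1 (0.0998), DS38 replicate 2 (0.0769) or DS38 replicate 3 (0.0751), and under 5 other settings. Pes1 was at 142.6, 142.9 and 143.2 CPM in DMSO and 147.0, 141.6 and 138.7 CPM in DS38, so the treated libraries lay on both sides of the controls. Bop1 was at 75.27 ± 2.24 and 72.37 ± 2.27 CPM (edgeR adjusted p = 0.260). Gnl3, nucleostemin, a GTP-binding protein of proliferating cells, was at 138.4 ± 2.94 and 140.2 ± 2.83 CPM (95% interval of the log2 fold change -0.04 to 0.08). Nop16 (log2 fold change -0.08 ± 0.038), Ppan (-0.07 ± 0.038), Rrp1b (-0.04 ± 0.032) and Wdr74 (0.004 ± 0.036) did not pass either. Ppan passed with the gene length correction and without DMSO replicate 1 (edgeR adjusted p = 0.0471), which was the control library lowest for it at 52.94 CPM, against 56.41 and 58.90.

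Promoters of these genes were compared because MYC-family factors bind the E-box, and because 13 of the genes fell and 0 rose. RefSeq promoter windows of the GRCm38.p6 build, from 250 bases before to 50 after each annotated start, were found for 28 of the 33 genes, as 36 windows. The letters searched, on both strands, were CACGTG (the E-box, a palindrome), CCGGAAG (a core bound by ETS factors), the NRF1 palindrome, CCAAT and TATAAA, and no motif contains another. An E-box was in 7 of the 36 windows (19.4%), against 9.3% of 14105 windows of genes tested here and 7.2% of all 32851 windows. By gene it was in the windows of 3 of 10 that fell (Utp20, Wdr43 and Nop2) and 4 of 18 that did not pass (Utp4, Pes1, Mybbp1a and Rrn3). CCGGAAG was in 9 of the 36 windows against 16.2% of those of tested genes, CCAAT in 19.4% against 37.7%, TATAAA in 8.3% against 7.2%, and the NRF1 palindrome in 0 of 36 against 1.9%. A match is a description of the letters and not a binding site. The windows below, 5′ to 3′ along the gene with the E-box in capitals, show the 3 fallen genes that hold an E-box, Rrn3, which holds 2 and did not pass, and Polr1a, which fell and holds none.
Utp20 (chr10:88826765-88827064, minus strand): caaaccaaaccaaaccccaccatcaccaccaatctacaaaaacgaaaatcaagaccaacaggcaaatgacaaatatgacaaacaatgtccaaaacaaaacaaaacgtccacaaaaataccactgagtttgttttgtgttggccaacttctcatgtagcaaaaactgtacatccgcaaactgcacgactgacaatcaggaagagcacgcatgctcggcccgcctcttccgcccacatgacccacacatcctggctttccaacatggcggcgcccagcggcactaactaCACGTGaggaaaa
Wdr43 (chr17:71615965-71616264, plus strand): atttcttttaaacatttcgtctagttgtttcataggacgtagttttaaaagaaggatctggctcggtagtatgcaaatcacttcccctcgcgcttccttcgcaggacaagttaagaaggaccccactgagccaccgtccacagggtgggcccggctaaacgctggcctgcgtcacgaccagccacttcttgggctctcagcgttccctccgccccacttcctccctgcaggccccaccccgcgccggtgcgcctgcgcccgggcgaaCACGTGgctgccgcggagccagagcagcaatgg
Nop2 (chr6:125131633-125131932, plus strand): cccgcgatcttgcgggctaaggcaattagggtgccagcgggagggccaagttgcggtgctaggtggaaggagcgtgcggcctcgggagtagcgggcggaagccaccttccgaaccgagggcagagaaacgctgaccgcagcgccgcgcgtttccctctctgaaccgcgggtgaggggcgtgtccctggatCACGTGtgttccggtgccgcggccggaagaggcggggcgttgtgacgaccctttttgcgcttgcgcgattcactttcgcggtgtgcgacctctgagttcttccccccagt
Rrn3 (chr16:13780449-13780748, plus strand): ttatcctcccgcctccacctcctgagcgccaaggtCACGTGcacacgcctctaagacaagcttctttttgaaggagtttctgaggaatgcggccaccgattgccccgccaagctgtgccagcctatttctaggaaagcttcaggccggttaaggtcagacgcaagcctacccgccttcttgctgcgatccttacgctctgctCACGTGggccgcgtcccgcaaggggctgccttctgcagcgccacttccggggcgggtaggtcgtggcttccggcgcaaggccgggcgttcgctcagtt
Polr1a (chr6:71908803-71909102, plus strand): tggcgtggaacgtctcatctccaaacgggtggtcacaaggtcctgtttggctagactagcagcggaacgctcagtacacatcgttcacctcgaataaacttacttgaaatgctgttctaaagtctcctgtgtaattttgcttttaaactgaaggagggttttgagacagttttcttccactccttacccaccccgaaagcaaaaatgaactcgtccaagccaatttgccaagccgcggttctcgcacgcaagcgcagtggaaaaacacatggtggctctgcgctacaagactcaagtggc
Counted from the annotated start as position 1, the E-box begins at position 38 in Utp20, 18 in Wdr43 and -60 in Nop2. In Rrn3 the E-boxes begin at positions -215 and -48. Any relation between these letters and the fold change of a gene was not tested.

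Levels of different genes were compared as CPM per kilobase of the deposited gene length. That length is a single value per gene, up to 11955 bases (Wdr12), and need not be that of the transcript present. Order and span are uncertain for that reason, and the SD between libraries does not cover it. In DMSO these ranged from 7.31 ± 0.219 for Polr1e to 533 ± 5.65 for Npm1 (SD, n = 3), a span of 72.9-fold. Npm1, Ncl (177 ± 5.33) and Ddx21 (115 ± 1.77 CPM per kilobase) led the order by far more than their spread. Below them Nop56 (73.2 ± 1.39), Mybbp1a (71.5 ± 0.730) and Nolc1 (70.0 ± 1.44) followed, each within 2 SD of the next. The subunits of polymerase I, which are present in equal number in the enzyme, were at 30.3 (Polr1c), 26.3 (Polr1a), 20.6 (Polr1b) and 7.31 (Polr1e) CPM per kilobase. The fall of a gene showed little relation to its level: across the 33 genes, Pearson's r between the log2 fold change and the log2 level per kilobase in DMSO was -0.15 and Spearman's rho -0.21, with the same libraries behind every point.

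**Figure D3:**
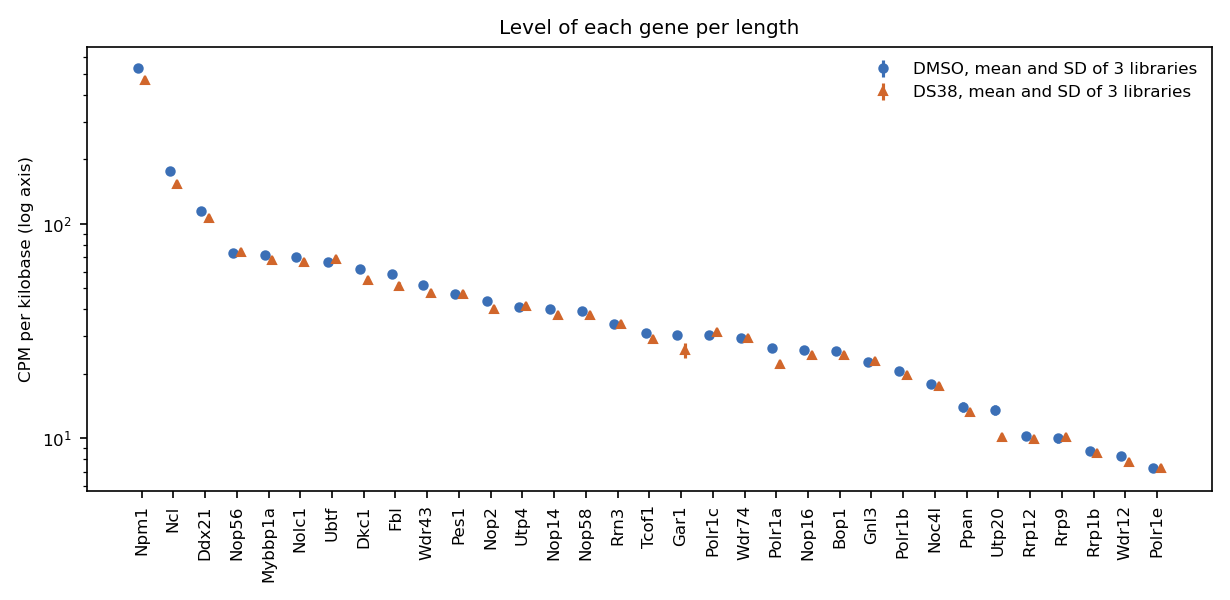
Level of each gene as CPM per kilobase (y axis, log scale), ordered by its level in DMSO from Npm1 at 533 to Polr1e at 7.31. Circles are DMSO and triangles DS38, each the mean of 3 libraries with SD bars that are mostly smaller than the symbol.

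Ratios of genes within a library do not depend on how libraries are scaled. All 81 pairs of genes of the same role were computed, and in 39 (48.1%) the groups did not overlap. The share was 59.5% over the 447 pairs of the 33 genes from different roles and 52.3% over all pairs of the 6667 genes at least as abundant as the least abundant of the 33. The share within roles was thus no higher than the background, and the pairs below are given by their values only. With 3 libraries against 3 the smallest two-sided exact permutation p is 0.1. Each pair whose groups did not overlap reached it (0.208 after Benjamini-Hochberg adjustment over the 81 pairs), so no pair can pass. The log2 ratio of Fbl to Nop56 counts was -0.24, -0.30 and -0.31 in DMSO and -0.47, -0.44 and -0.52 in DS38, a mean difference of -0.19. The log2 ratio of Utp20 to Utp4 went from 0.02, 0.02 and -0.14 in DMSO to -0.48, -0.48 and -0.44 in DS38. Within polymerase I, the log2 ratio of Polr1a to Polr1b was lower by 0.17, 1.35 to 1.43 in DMSO and 1.18 to 1.23 in DS38, and that of Polr1a to Polr1c was 2.06 to 2.25 in DMSO and 1.87 to 1.89 in DS38. In other pairs the groups overlapped, which at this number of libraries does not show that a ratio was unaltered. Dkc1 to Gar1 was 2.245 to 2.328 in DMSO and 2.214 to 2.434 in DS38 (exact permutation p = 0.4), and Ncl to Npm1 was 0.307 to 0.383 and 0.305 to 0.332 (exact permutation p = 0.4). In the PeBoW complex the log2 ratio of Pes1 to Wdr12 was 0.52 to 0.54 in DMSO and 0.58 to 0.67 in DS38, while that of Bop1 to Wdr12 overlapped.

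**Figure D4:**
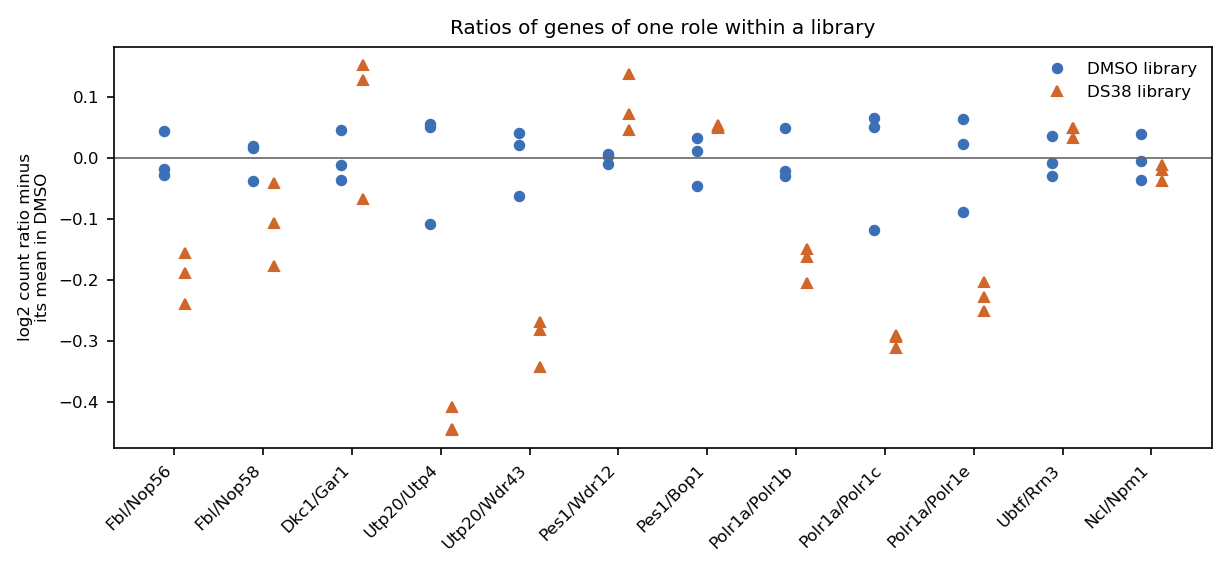
Log2 ratio of the counts of 2 genes in each library, minus its mean in DMSO (y axis), for 12 of the 81 pairs (x axis), chosen after their values were seen. Circles are DMSO and triangles DS38 libraries, and the 3 DS38 libraries lie below all controls for Utp20 to Utp4 and for Polr1a to each other subunit.

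In the rest of the pathway genes passed in both directions. The counts by list below stand against 11.7% lower and 12.9% higher among all genes tested, and 20.4% and 15.3% among the abundant ones. Of 16 other polymerase I subunits and factors, 2 rose (12.5%) and 1 fell (6.2%), with a median log2 fold change of 0.03. Polr1g, the subunit that pairs with Polr1e, averaged 38.80 ± 0.541 CPM in DMSO and fell to 33.82 ± 1.56 in DS38 (SD, n = 3), a log2 fold change of -0.20 ± 0.042 (edgeR adjusted p = 0.00138). Taf1a, part of the factor that recruits the polymerase to its promoter, rose from 23.19 ± 0.404 to 25.52 ± 0.133 CPM (edgeR adjusted p = 0.0282) and was called in 9 of 16 alternatives. The risen count of this list was 1 without DMSO replicate 1 or without any single DS38 library, and the fallen count 2 without DMSO replicate 1. Cavin1, a transcript release factor better known from caveolae, rose from 18.73 ± 1.32 to 24.49 ± 0.852 CPM (edgeR adjusted p = 1.962e-05). Polr1d, Polr1f, Polr1h, Taf1b, Taf1c, Taf1d and Ttf1 did not pass, with log2 fold changes of -0.08 ± 0.035, 0.02 ± 0.042, 0.04 ± 0.052, 0.11 ± 0.054, 0.13 ± 0.080, -0.05 ± 0.030 and 0.03 ± 0.040.

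Of 12 other snoRNP proteins and assembly factors, 0 rose and 2 fell (16.7%), Nhp2 and the ATPase gene Ruvbl1 (log2 fold change -0.11 ± 0.031). With library size alone 2 rose and 1 fell, and 1 rose without DMSO replicate 3 and 1 fell without DS38 replicate 3. Of 44 other small subunit factors, 2 rose (4.5%) and 8 fell (18.2%), with a median of -0.02. Utp3 fell from 90.99 ± 4.49 to 78.28 ± 2.20 CPM (SD, n = 3) and Wdr46 from 65.31 ± 4.27 to 57.94 ± 0.577, whereas Riok2, a kinase of late small subunit maturation, rose by 0.11 ± 0.032 and Imp4, a U3 snoRNP partner, by 0.11 ± 0.036 on the log2 scale. Riok2 was called in 12 of 16 alternatives and Imp4 in 7. The count of risen small subunit factors was 0 without DS38 replicate 1 or after thinning, 1 without DMSO replicate 1 or 2 or DS38 replicate 2 or 3, and 5 with library size alone. Of 47 other large subunit factors, 5 rose (10.6%) and 9 fell (19.1%), with a median of -0.01. The risen count was 3 without DMSO replicate 2 or DS38 replicate 1 and with the gene length correction, and 2 without DS38 replicate 2. Mdn1, the giant ATPase midasin that strips factors from the maturing large subunit, was at 203.5, 196.6 and 160.2 CPM in DMSO and 126.0, 126.6 and 135.8 CPM in DS38. DMSO replicate 3 was nearest to the treated libraries, and Mdn1 fell by 0.53 ± 0.055 on the log2 scale (edgeR adjusted p = 4.438e-07). Ddx54, a helicase, fell by 0.17 ± 0.035, while Noc2l rose from 132.8 ± 4.52 to 149.9 ± 1.77 CPM and Nle1 from 18.42 ± 0.872 to 22.15 ± 0.633. The fallen counts moved with the settings as well: with the gene length correction 16 small subunit and 18 large subunit factors fell, and with library size alone 4 and 2. For large subunit factors the count was 3 without a filter on low counts, 2 when DMSO replicate 2 was left out, 2 without DS38 replicate 1, 2 without DS38 replicate 3 and 3 without DS38 replicate 2. For small subunit factors it was 5 without DS38 replicate 2. Of 13 tested genes of the RNA exosome and its cofactors, 1 rose (7.7%) and 2 fell (15.4%), shares close to those of all genes: the nucleases Dis3 (188.6 ± 3.88 to 167.5 ± 4.07 CPM) and Exosc10 (128.4 ± 2.36 to 120.7 ± 3.62) fell, and Exosc4 rose by 0.15 ± 0.051. Exosc10 was called in 8 of 16 alternatives and Exosc4 in 5. The fallen count was 1 when DS38 replicate 1, 2 or 3 was left out and 6 with the gene length correction, and the risen count was 0 without DMSO replicate 1, 2 or 3 and without DS38 replicate 1 or 2. Exosc6 was at 0 counts throughout, where 3 counts over the 6 libraries would be 0.00831 CPM, a limit for counting error only. The other Exosc genes listed averaged 18.2 CPM (Exosc4) to 128.4 CPM (Exosc10) in DMSO. Whether the 0 of Exosc6 is technical was not tested, so it does not show that the gene is silent.

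Among genes of the ribosomal proteins themselves, the calls were all upward. Of 81 tested, 41 rose and 0 fell, with a median log2 fold change of 0.09, and the number that rose was 28 to 61 over the alternatives. Rps14 was at 504.0, 486.1 and 542.5 CPM in DMSO and 626.9, 602.4 and 591.4 CPM in DS38, and Rpl29 rose from 272.3 ± 6.69 to 310.9 ± 2.81 CPM (SD, n = 3). Ribosomal protein genes have many near-identical processed copies, so their single values are uncertain. The counts of 13 fallen and 0 risen in the 33 assembly genes and 0 fallen and 41 risen in these 81 come from the same fit, and the difference between the lists was not tested.

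In the MYC, MAX and MXD network, whose members regulate this pathway, 2 of 12 rose (16.7%) and 1 fell (8.3%), shares close to those of all genes. The risen count was 1 without DS38 replicate 1, and the fallen count 2 without DMSO replicate 3. Myc averaged 41.33 ± 0.726 CPM in DMSO against 39.98 ± 0.356 under DS38 (log2 fold change -0.05 ± 0.037) and Mycn 45.8 ± 0.723 and 45.6 ± 0.336 (-0.004 ± 0.036), and neither passed. Mxd4 and Mxi1, which oppose MYC at E-boxes, rose from 41.06 ± 1.53 to 46.33 ± 1.29 CPM and from 68.38 ± 1.36 to 74.46 ± 1.22 CPM (edgeR adjusted p = 0.00227 and 0.00779). Mga, a very large MAX partner, fell by 0.17 ± 0.039 on the log2 scale. The plot of fold changes by list shows these groups side by side.

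**Figure D5:**
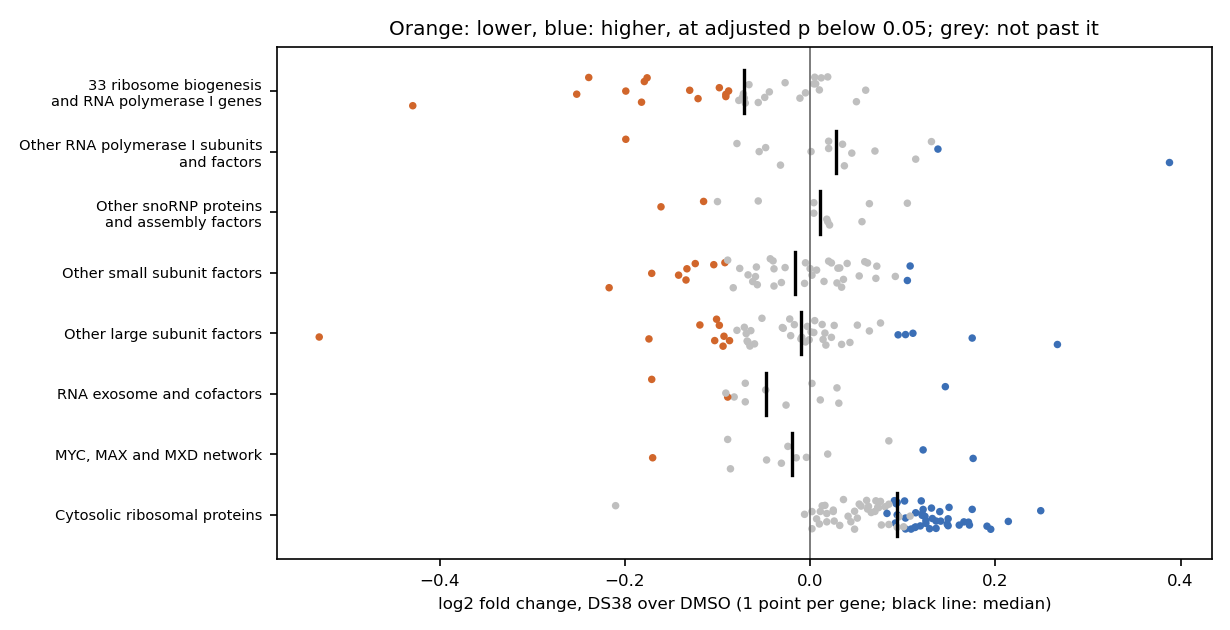
Log2 fold change of DS38 over DMSO (x axis) for every tested gene of each list (rows), with the median as a black line. The 33 genes have a median of -0.07 with no gene past the threshold on the right, and the ribosomal protein genes a median of 0.09 with none past it on the left.

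The share of genes called differed with gene length. Among the 4420 tested genes with the longest models, 6026 bases and above, 22.7% were lower and 13.3% higher, against 7.10% and 4.73% of the 4422 shortest. The median log2 fold change did not follow length in 1 direction: from the shortest to the longest of 4 bins it was -0.06, 0.03, 0.03 and -0.02. Of the 33 genes, 8 were in the longest bin, of which 4 fell, among them Utp20 (10199 bases), Polr1a (11871 bases) and Ncl (10188 bases), while Gar1 is the shortest at 1714 bases. Across the 33 genes the log2 fold change and log2 length gave Pearson's r of -0.30 and Spearman's rho of -0.18, whereas over all 17679 genes tested they were 0.09 and 0.05, of the opposite sign. With a correction for length in each library, Utp20, Polr1a, Ncl and Gar1 still passed, and 18 of the 33 fell. The genes also differed between libraries of a group. Within DMSO, replicate 2 was the lowest of the 3 libraries for 19 genes and replicate 3 the highest for 15, and within DS38, replicate 3 was the lowest for 18. The coefficient of variation had a median of 2.12% in DMSO and 1.52% in DS38, with maxima of 5.34% (Ppan) and 7.93% (Gar1).

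Exons of 15 of the 33 genes share bases with exons of another gene by GENCODE M21, whose build predates the GRCm39 that the submitters name. Of the 13 that fell, these are Ncl, Dkc1, Nop14, Wdr12, Polr1a and Wdr43. The strand setting of the counts is not given, so reads in shared bases, 185 bases at most with an antisense gene (Polr1a with Gm26628), cannot be assigned to either gene with certainty.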

How the data were processed

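Raw counts per Ensembl gene, deposited with gene lengths, cover 6 libraries made with an mRNA kit, per the labels' protocols. The submitters' processing notes name edgeR, R 4.1.0, Subread 2.0.3, featureCounts and STAR 2.7.9a, and the builds GRCh38.p13 and GRCm39, without roles. The sources used here do not give strand or multimapping settings. Symbols matched 52083 of 55416 identifiers.

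The counts were tested with edgeR 4.0.16 in R 4.3.3 (filterByExpr with a minimum count of 10 and total of 15, TMM, group as the sole term), with 17679 genes tested. CPM are on TMM-scaled totals. SE is the absolute log2 fold change divided by the square root of the quasi-likelihood F. The 95% intervals take this SE by the normal distribution, so they are approximate and somewhat narrower than the F test implies. Replicates differed by more than sampling noise. The chi-square per degree of freedom was 8.33 to 9.38 within DMSO and 2.94 to 3.63 within DS38. Between groups it was 10.5 to 29.7. The lowest of these came from DMSO replicate 3, at 12, 10.5 and 13 against DS38 replicates 1, 2 and 3. On data simulated for this comparison with 17409 genes run, the test called 40 of 66 genes set to 1.2-fold, 43 of 66 set to 1.5-fold and 56 of 68 set to 2-fold, with 15 false calls. Alternatives were DESeq2 1.42.0, limma-voom 3.58.1, RLE scaling, library size alone, no filter, a filter of 5 CPM in at least 3 libraries, the replicate block, robust dispersion, thinning to the smallest library, a correction for gene length, and each library left out. The shares of gene pairs whose ratios did not overlap were added after the data were seen. Ratios used Python 3.11.15 and figures matplotlib 3.10.9.

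The genes and lists were chosen with earlier results of these data known. All 33 genes are named, and from each further list the 2 of smallest adjusted p in each direction past the threshold, with Myc, Mycn and factors specific to RNA polymerase I.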

Additional observations from a re-analysis of the deposited data

How the results depend on the processing

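The count of the 33 genes that fell, 13, was 15 with DESeq2, 14 with limma-voom, RLE scaling and robust dispersion, 16 with the stricter filter, 12 after thinning, 10 without a filter on low counts, 9 with library size alone, 18 with the gene length correction, and 9 to 15 with 1 library left out. The count that rose was 0 in every alternative except library size alone, where it was 1 (Ubtf). The median log2 fold change of the 33 genes, -0.07, was -0.09 after correcting for length and -0.04 with library size alone, and -0.08 to -0.06 with 1 library left out. The median of all genes was 0.04 with library size alone.

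With the replicate number as a block 10 of the 33 fell; Nop14, Wdr12 and Tcof1 lost their calls (edgeR adjusted p = 0.0572, 0.0567 and 0.0535). Same-numbered libraries did not deviate together (r = 0.0349, -0.0108 and -0.0266), so no effect shared by number was seen. That check cannot show whether same-numbered libraries were handled together. Under the replicate block 4 other large subunit factors fell instead of 9.

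Changes of sign occurred in genes that did not pass, with no call on either side. With the length correction the log2 fold change was -0.03 for Nop56, -0.04 for Rrp9, -0.04 for Utp4, -0.02 for Wdr74, -0.0014 for Gnl3 and -0.03 for Rrn3. With library size alone it was 0.01 for Noc4l, 0.03 for Pes1 and 0.02 for Polr1e. After thinning it was -0.0048 for Rrp9, 0.0046 for Noc4l, -0.0044 for Wdr74 and 0.01 for Polr1e, and with RLE scaling -0.0021 for Utp4, -0.0034 for Wdr74 and -0.0022 for Rrn3. For Wdr74 DESeq2 gave -0.0003 and the stricter filter -0.0005, and for Pes1 it was 0.003 without a filter. With 1 library left out the range was -0.02 to 0.04 for Rrp9, -0.01 to 0.02 for Utp4, -0.03 to 0.02 for Pes1, -0.02 to 0.02 for Wdr74, -0.04 to 0.01 for Polr1e and -0.01 to 0.02 for Rrn3. The cause of these changes was not tested. Each of the 33 genes had at least 1128 counts in each library.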
